A study of Mus musculus with 6 samples.

Results

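The genes described here encode the receptors for estrogens and progesterone, the enzymes that convert gonadal steroids inside the brain, and a pair of coactivators through which the nuclear receptors act. They were chosen by symbol: *Esr1*, *Esr2*, *Pgr* and *Gper1* for the receptors, *Cyp19a1* and *Srd5a1* for the enzymes, and *Ncoa1* and *Ncoa2* for the coactivators. These 8 genes were all found among the 22322 rows of the deposited table, and 6 of them were among the 14188 genes that passed the filter on low counts. None of the 6 differed significantly between the diets, and *Ncoa1* had the smallest p-value of the 6.

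Gonadal steroids feed back on the arcuate nucleus (ARC), where kisspeptin neurons carry estrogen and progesterone receptors and set the pulses of luteinizing hormone (LH). A nuclear receptor such as ERα (*Esr1*), ERβ (*Esr2*) or PR (*Pgr*) binds its steroid, attaches to DNA and recruits coactivators, among them SRC-1 (*Ncoa1*) and SRC-2 (*Ncoa2*). GPER1 is a membrane receptor that responds to estradiol. In males much of the estradiol in the brain is made there from testosterone by aromatase (*Cyp19a1*), whereas 5-alpha reductase type 1 (*Srd5a1*) turns testosterone into dihydrotestosterone and progesterone into its neuroactive derivatives.

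RNA-seq was done on ARC tissue of male mice, with 3 samples from mice on a normal-chow diet (NCD; 16.5% fat) and 3 from mice on a high-fat diet (HFD; 60% fat). The diets began at 4 weeks of age and lasted 16 weeks, and the methods list C57BL/6J wild type, Kiss1-Cre and R26R-EYFP mice. Kiss1 neurons were made visible in crosses of the latter lines, and the sources used here do not state the genotype of the mice behind each library. The ARC was cut from frozen sections by laser capture microdissection (LCM), so that every cell type of the excised area contributed RNA, and fewer cells of a type cannot be told apart from less RNA per cell. The sources used here do not say whether a sample came from 1 mouse or several, and p-values therefore measure the spread between these samples, which may be technical in part. The samples are named NCD1 to NCD3 and HFD1 to HFD3 after their titles. Their total counts were 15925648, 9937632 and 6882449 for NCD1 to NCD3, and 8024664, 10479778 and 5171381 for HFD1 to HFD3. NCD1 was the deepest library and HFD3 the shallowest.

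The dissection was checked with marker genes. All 10 markers of ARC neurons passed the filter, and their summed level was 1316, 2300 and 1583 CPM (read counts scaled to library size with TMM factors) in NCD1 to NCD3 and 1963, 1840 and 2229 CPM in HFD1 to HFD3, with *Cartpt* as the most abundant. *Kiss1*, which encodes kisspeptin, had no count in NCD1 and HFD1 and at most 7.89 CPM elsewhere. Markers of the neighbouring ventromedial nucleus, where *Esr1* is also expressed, were present in every sample: *Nr5a1* ranged from 16.5 to 50.02 CPM and *Fezf1* from 44.5 to 93.9 CPM. The 7 ventromedial markers summed to 693, 618 and 646 CPM in NCD and to 587, 731 and 487 CPM in HFD, with overlap between the diets. The 6 markers of paraventricular and supraoptic neurons, led by *Avp*, summed to 2956, 5900 and 2638 CPM in NCD and to 1429, 1496 and 1348 CPM in HFD, without overlap. Singly, 4 of these 6 genes had a negative and 2 a positive log2 fold change (HFD against NCD), with a median of -0.45. Whether the excised area differed between the samples, and what that contributed to the values below, was not tested.

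The sequence upstream of the genes is shown for 4 members that span their range of expression: *Ncoa1*, the most abundant; *Pgr*, a classical estrogen-induced gene; and *Esr2* and *Cyp19a1*, the scarcest. Each is the 250 bases before a start site in RefSeq (GRCm38.p6), written 5′ to 3′ on the strand of the gene. Capitals mark matches on either strand to the estrogen response element (GGTCA and TGACC with any 3 bases between them), to AGGTCA, which can overlap its letters, to the GC box (GGGCGG), to the TATA element (TATAAA) and to the CCAAT box (CCAAT). *Ncoa1* lies at chr12:4477183-4477432 on the minus strand, *Pgr* at chr9:8899583-8899832 on the plus strand, *Esr2* at chr12:76177260-76177509 on the minus strand, and the most upstream of 3 listed starts of *Cyp19a1* at chr9:54268165-54268414 on the minus strand.
Ncoa1: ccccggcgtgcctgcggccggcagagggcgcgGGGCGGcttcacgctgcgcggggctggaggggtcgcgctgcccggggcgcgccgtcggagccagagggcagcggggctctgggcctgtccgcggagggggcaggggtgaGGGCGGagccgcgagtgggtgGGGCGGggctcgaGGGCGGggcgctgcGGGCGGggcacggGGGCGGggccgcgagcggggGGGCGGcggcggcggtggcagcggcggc
Pgr: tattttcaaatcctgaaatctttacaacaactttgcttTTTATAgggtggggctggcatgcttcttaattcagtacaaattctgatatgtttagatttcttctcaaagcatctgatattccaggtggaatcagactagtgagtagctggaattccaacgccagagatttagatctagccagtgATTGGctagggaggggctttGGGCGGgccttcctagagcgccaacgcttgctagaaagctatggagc
Esr2: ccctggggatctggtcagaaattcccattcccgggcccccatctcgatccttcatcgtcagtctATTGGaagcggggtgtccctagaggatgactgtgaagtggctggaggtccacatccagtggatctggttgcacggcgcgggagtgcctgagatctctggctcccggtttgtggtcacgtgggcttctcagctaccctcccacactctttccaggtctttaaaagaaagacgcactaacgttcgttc
Cyp19a1: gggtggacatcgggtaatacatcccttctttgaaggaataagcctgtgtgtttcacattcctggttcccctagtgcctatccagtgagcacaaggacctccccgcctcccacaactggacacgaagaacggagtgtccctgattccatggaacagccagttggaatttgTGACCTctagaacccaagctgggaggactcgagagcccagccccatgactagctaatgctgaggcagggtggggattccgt

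The *Ncoa1* window was 85.6% G and C, against a median of 52.4% over all 32851 windows of this length, and held 7 matches to the GC box. *Pgr* had 1 match each to the GC box, the TATA element and the CCAAT box, *Esr2* had 1 CCAAT box, and this window of *Cyp19a1* had 1 AGGTCA. The windows of the further starts of *Cyp19a1* held 2 TATA matches each and no AGGTCA, and 1 of them a CCAAT box. No estrogen response element with these letters was found in the 10 windows that were available, from 7 members, and 0.0639% of all windows held one. Of all windows, 14.0% held AGGTCA, 32.7% a GC box, 12.4% a TATA element and 33.8% a CCAAT box. For *Ncoa2* no window was available. These matches are a description of the letters and do not show binding.

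Levels were compared between genes on the deposited FPKM values (reads scaled to transcript length and library size). By its mean over the 6 samples *Ncoa1* came first with 22.8 ± 9.26 FPKM (SD, n = 6), followed by *Ncoa2* with 5.997 ± 1.652 FPKM, *Pgr* with 5.23 ± 0.816 FPKM, *Esr1* with 4.47 ± 1.38 FPKM and *Srd5a1* with 3.54 ± 0.922 FPKM. *Gper1* had 1.26 ± 0.533 FPKM, *Esr2* 0.293 ± 0.0903 FPKM and *Cyp19a1* 0.162 ± 0.211 FPKM. The lowest sample of *Ncoa1* (11.9 FPKM) lay above the highest of *Ncoa2* (9.16 FPKM), so the coactivators did not overlap. The neighbours from *Ncoa2* to *Srd5a1* overlapped in range and cannot be ordered beyond their spread, nor can *Esr2* and *Cyp19a1*. *Gper1* stayed below every sample of *Srd5a1*, with a highest value of 2.06 FPKM against a lowest of 2.31 FPKM, and above every sample of *Esr2*. In the whole table, 82.6% of the rows had a lower mean FPKM than *Ncoa1*, 56.6% a lower one than *Esr1* and 30.6% a lower one than *Cyp19a1*. Per kilobase of all annotated exons in place of FPKM, *Ncoa1* was still first and *Gper1*, *Esr2* and *Cyp19a1* last, but *Ncoa2* and *Esr1* fell behind *Srd5a1*.

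**Figure D1:**
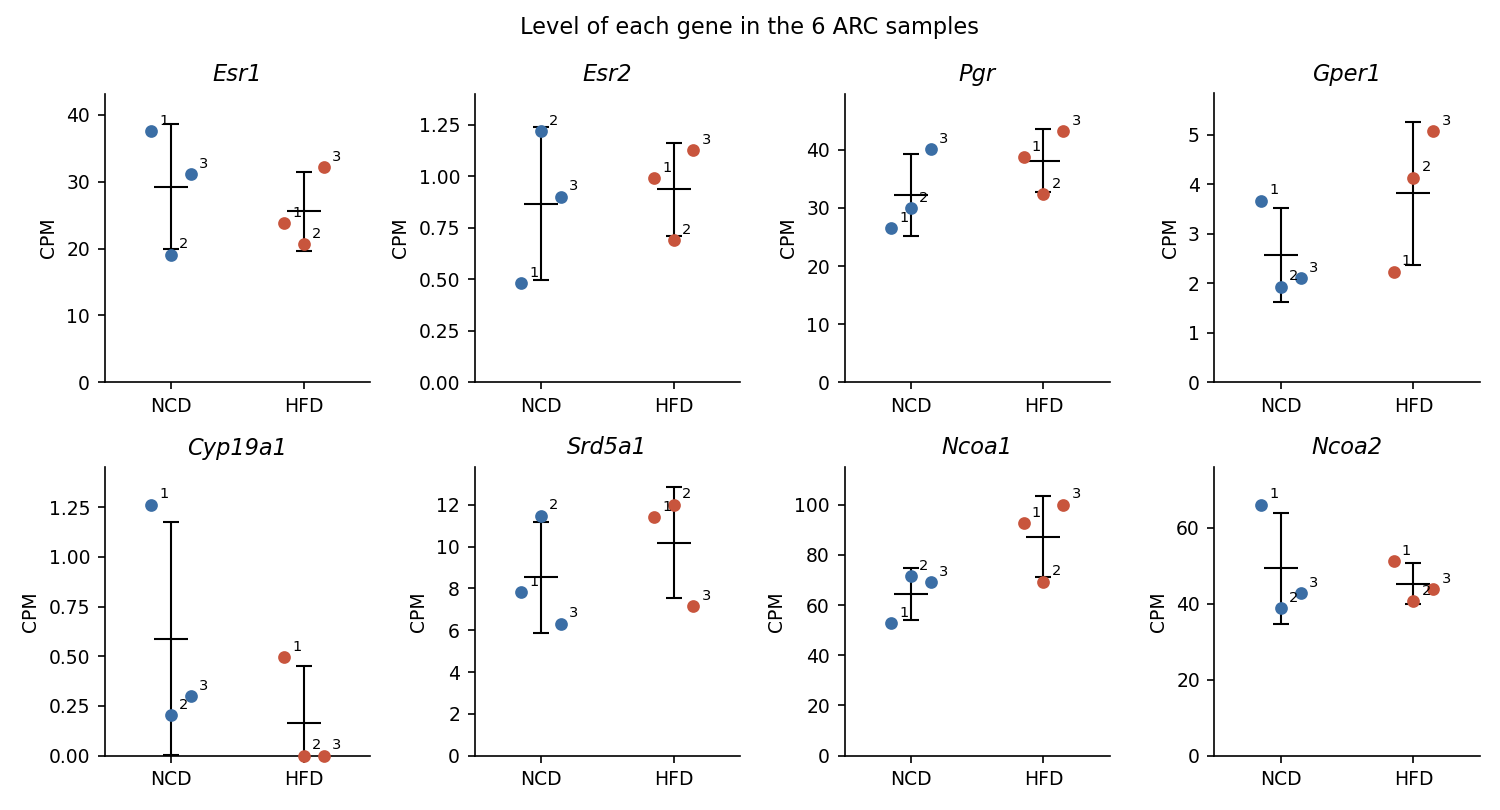
Each panel plots 1 gene in CPM on an axis from 0, with a point per sample numbered as in the titles (blue NCD, red HFD) and the mean with its SD (n = 3) in black. The points of the diets overlap in all 8 genes, and NCD1 holds the highest value of *Esr1*, *Ncoa2* and *Cyp19a1*, whose HFD error bar is cut at 0.

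To examine whether HFD changed the expression of these genes, counts were tested in edgeR (quasi-likelihood), and p-values were adjusted by the method of Benjamini and Hochberg over all genes. Of the 6 members tested, 0 had an adjusted p under 0.05, where 0.0564% of all genes tested did and 0.00705% did with a higher level in HFD. Before adjustment 0 of the 6 had p under 0.05, against 2.3% of all genes. DESeq2, which gave a value for all 8 members, also called 0 of them after adjustment and 0 before it. None of the 6 separated the diets without overlap, which 6.47% of all genes did, 3.24% with HFD above and 3.24% with HFD below. Log2 fold changes, HFD against NCD, were positive in 4 members and negative in 2, with a median of 0.25 where the median of all genes was 0.0032. With 3 samples against 3, an exact two-sided permutation test of a single gene cannot give a p under 0.1, and the members ranged from 0.2 to 0.9 in that test. The adjusted p of each of the 6 was 0.999.

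Among the receptors, *Esr1* (chr10:4611593-5005614, plus strand, GRCm38) had 37.6, 19.1 and 31.1 CPM in NCD1 to NCD3 and 23.8, 20.7 and 32.1 CPM in HFD1 to HFD3. NCD1 was the highest of the 6 samples, NCD2 the lowest, and every HFD sample lay between them. Its log2 fold change was -0.21 (standard error 0.28; edgeR p = 0.468 before adjustment, exact permutation p = 0.8), with a 95% interval from a 0.573-fold to a 1.31-fold level in HFD. Without NCD1 the log2 fold change was 0.0105, so the negative value rested on that library. It was -0.437 without NCD2 and -0.40 without HFD3.

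*Pgr* (chr9:8899833-8968611, plus strand) encodes the progesterone receptor, which estradiol induces in hypothalamic neurons through ERα. It was at 26.5, 30.0 and 40.1 CPM in NCD and at 38.7, 32.4 and 43.2 CPM in HFD. The highest NCD sample exceeded the lower pair of HFD samples, and within each diet sample 3 was the highest. The log2 fold change was 0.25 (standard error 0.23; edgeR p = 0.298, exact permutation p = 0.3), and the 95% interval ran from 0.844-fold to 1.66-fold. With depth (log2 of the total count) as a covariate it was 0.058, and leaving out a library gave 0.108 without NCD1, 0.145 without HFD3 and 0.433 without NCD3.

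*Gper1* (chr5:139423151-139427800, plus strand) was counted with 61, 19 and 14 reads in NCD and with 18, 42 and 27 reads in HFD. In CPM these were 3.67, 1.93 and 2.10 against 2.23, 4.14 and 5.07, so that HFD2 and HFD3 were above all NCD samples and HFD1 was not. The counting error alone gave *Gper1* a 95% Poisson interval from 1.16 to 3.02 CPM in NCD2 and from 3.34 to 7.38 CPM in HFD3, but that of NCD1 (2.81 to 4.71 CPM) overlapped HFD3, and that of HFD1 (1.32 to 3.53 CPM) overlapped all NCD samples. Its log2 fold change of 0.53 had the widest interval of the 6, from 0.725-fold to 2.86-fold (standard error 0.46; edgeR p = 0.271, exact permutation p = 0.2). Without NCD1 the log2 fold change was 0.89, and without HFD3 it was 0.29.

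*Esr2* (chr12:76120419-76177259, minus strand) was close to the limit of detection, with 8, 12 and 6 reads in NCD and 8, 7 and 6 reads in HFD. Its level was 0.481, 1.22 and 0.902 CPM in NCD and 0.993, 0.689 and 1.13 CPM in HFD, and the 95% Poisson intervals of all 6 samples overlapped. In each sample it was above the level of 3 reads, which was 0.18 CPM in NCD1 and 0.564 CPM in HFD3 and is taken as the smallest amount that can be told from none. *Esr2* did not pass the filter, and in a fit on all genes with at least 1 read its log2 fold change was 0.11 (edgeR p = 0.893, exact permutation p = 0.7). A difference between the diets was not detectable at this depth.

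**Figure D2:**
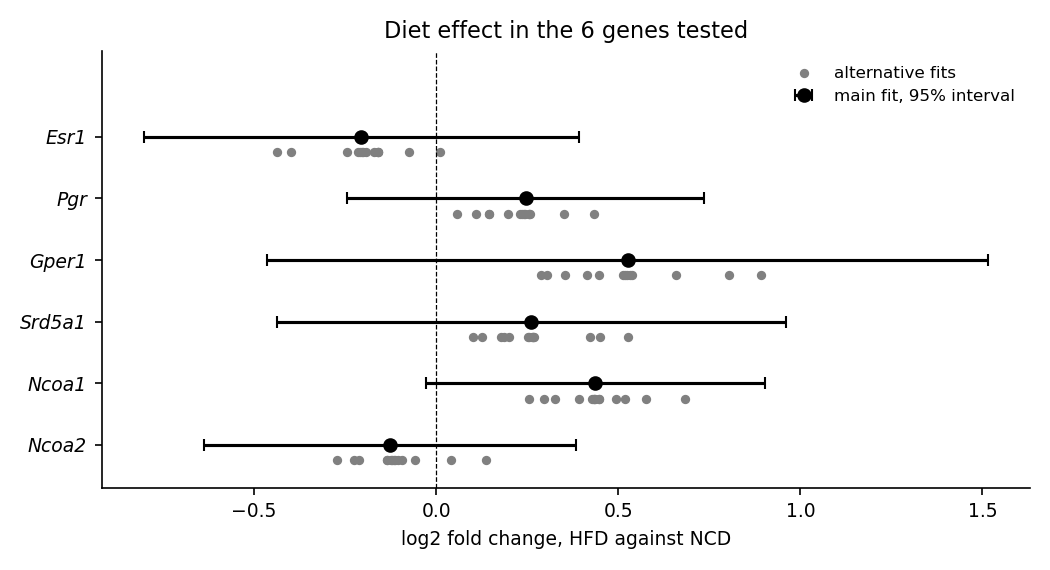
The horizontal axis is the log2 fold change of HFD against NCD for the 6 genes tested, with the edgeR estimate and its 95% interval in black and the estimates of the alternative fits as grey points. All 6 intervals include 0, and the points of *Esr1* and *Ncoa2* fall on both sides of it.

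Of the converting enzymes, aromatase RNA was barely found. *Cyp19a1* (chr9:54165937-54268110, minus strand) had 21 reads in NCD1, 2 in NCD2, 2 in NCD3 and 4 in HFD1, and 0 in HFD2 and HFD3. NCD1 thus held 21 of its 29 reads. In CPM these were 1.26 in NCD1 (95% Poisson interval 0.782 to 1.93), 0.203 in NCD2, 0.301 in NCD3 and 0.497 in HFD1. A count of 0 allows up to 0.295 CPM in HFD2 and 0.564 CPM in HFD3, if 3 reads are taken as the limit, and the 95% Poisson intervals reach 0.363 and 0.693 CPM, above the values of NCD2 and NCD3. The exact permutation test of the diets gave p = 0.3. In fits that kept low counts its log2 fold change was -1.82 in edgeR and -1.82 in DESeq2, the largest in size among the members and above p of 0.05 before adjustment in both, and 21 of the 25 NCD reads came from NCD1. Such limits and intervals cover counting error only, since several reads can stem from 1 molecule.

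*Srd5a1* (chr13:69573449-69611442, minus strand) was at 7.82, 11.5 and 6.31 CPM in NCD and at 11.4, 12.01 and 7.14 CPM in HFD. The samples of both diets covered nearly the same range, with sample 3 the lowest in each. Its log2 fold change was 0.26 (standard error 0.32; edgeR p = 0.432, exact permutation p = 0.6), with a 95% interval from 0.739-fold to 1.95-fold. Leaving out a library gave values from 0.101 without NCD3 to 0.528 without NCD2, and depth as a covariate gave 0.423. An exon of the noncoding gene *Gm17108* overlaps *Srd5a1* on the same strand, so that reads of the shared stretch may be divided between them.

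Of the coactivators, *Ncoa1* (chr12:4247362-4477182, minus strand) had the smallest p-value. It was at 52.7, 71.6 and 69.1 CPM in NCD and at 92.5, 69.3 and 99.98 CPM in HFD, or 64.5 ± 10.3 CPM against 87.3 ± 16.0 CPM (SD, n = 3). HFD1 and HFD3 lay above every NCD sample, whereas HFD2 lay below NCD2. The log2 fold change was 0.44 (standard error 0.21; edgeR p = 0.0633 before adjustment, exact permutation p = 0.2), and the 95% interval from 0.981-fold to 1.87-fold just included no difference. It was positive in all 14 alternative fits, from 0.25 to 0.68. Before adjustment p was under 0.05 in 3 of them, namely limma on FPKM, the replicate number as a block (log2 fold change 0.43) and the fit without HFD2 (0.58). With depth as a covariate it was 0.25, and the level of *Ncoa1* was highest in HFD3, the shallowest library, and lowest in NCD1, the deepest. The part of depth in the difference was not tested. A stretch of the last exon of *Ncoa1* is shared with *4921501I09Rik* on the opposite strand, and the sources used here do not state whether strand was used in counting.

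*Ncoa2* (chr1:13139105-13374083, minus strand) had 66.1, 38.9 and 42.8 CPM in NCD and 51.3, 40.8 and 43.8 CPM in HFD. Apart from NCD1 the samples lay within 38.9 to 51.3 CPM. The log2 fold change was -0.13 (standard error 0.235; edgeR p = 0.599, exact permutation p = 0.9), with a 95% interval from 0.643-fold to 1.30-fold. It turned to 0.14 without NCD1 and to 0.0403 with depth as a covariate, and was -0.272 without NCD2.

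The size of the *Ncoa1* difference depended on the unit. In FPKM its level was 11.9, 18.3 and 21.2 in NCD and 26.5, 19.9 and 39.1 in HFD, or 17.1 ± 4.75 against 28.5 ± 9.77 (SD, n = 3). On the log2(FPKM + 1) scale limma gave a difference of 0.68, larger than the 0.44 from the counts. Count, FPKM and total count together imply a transcript length for each gene and sample. For *Ncoa1* that length was 4618, 3865 and 3156 bases in NCD1 to NCD3 and 3509, 3381 and 2632 bases in HFD1 to HFD3. The longest value was thus 1.75 times the shortest, and the shallowest library had the shortest. The protein-coding transcripts of *Ncoa1* in GENCODE M21 range from 542 to 7329 bases.

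The length implied for the other members varied less. For *Esr1* the longest value was 1.06 times the shortest, for *Ncoa2* it was 1.08 times, and for *Srd5a1* and *Gper1* the lengths differed by less than those of *Esr1*. *Pgr* was at 5781 bases in NCD1 and between 6885 and 6894 bases in the other 5 samples, where the longest annotated coding transcript has 6889 bases. Among the 5558 genes with at least 200 reads in every sample the median of this quotient was 1.05, and 3.005% of them had a quotient as large as that of *Ncoa1*. What caused the variation in length was not tested.

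**Figure D3:**
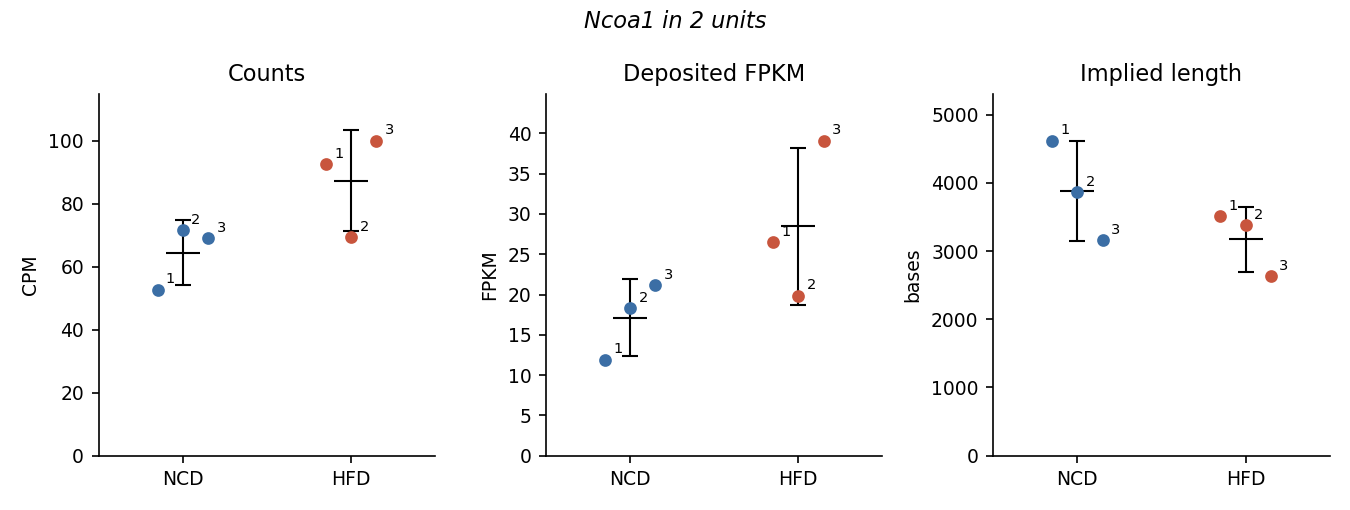
*Ncoa1* is plotted per sample as CPM, as deposited FPKM and as the transcript length in bases that count and FPKM imply, each axis from 0, with the mean and SD (n = 3) in black. HFD3 has the highest FPKM (39.1) and the shortest implied length (2632 bases), and NCD1 the lowest FPKM (11.9) and the longest (4618 bases).

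A ratio of 2 genes within a sample does not depend on its total count, and 3 such ratios of FPKM were compared. The RNA of *Esr1* exceeded that of *Esr2* in every sample. The ratio of *Esr1* to *Esr2* was 41.1, 8.08 and 16.5 in NCD and 11.8, 14.5 and 13.8 in HFD, with NCD1 far above the rest. Its log2 value was 4.14 ± 1.18 in NCD and 3.74 ± 0.157 in HFD (SD, n = 3; exact permutation test, p = 0.7), a difference of -0.40 that was 0.21 without NCD1 and -0.97 without NCD2, and the denominator rested on 12 reads or fewer per sample. Per kilobase of annotated exon the ratio was smaller, with a geometric mean over the 6 samples of 7.61 against 15.3 in FPKM.

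In FPKM *Pgr* exceeded *Esr1* in 5 of the 6 samples, with a ratio of 0.728, 1.40 and 1.18 in NCD and 1.496, 1.43 and 1.20 in HFD. NCD1 was the sample below 1, but per kilobase of annotated exon its ratio was 1.13 and all 6 samples were above 1. The mean log2 ratio was 0.36 higher in HFD (exact permutation test, p = 0.2), and 0.09 higher without NCD1. The ratio of *Ncoa1* to *Ncoa2* was 1.30, 3.79 and 4.15 in NCD and 4.14, 4.05 and 7.02 in HFD. NCD1 was again the lowest and HFD3 the highest, and the remaining 4 samples lay between 3.79 and 4.15. The log2 ratio was 0.84 higher in HFD (exact permutation test, p = 0.3), and 0.31 higher without NCD1. Per kilobase of annotated exon, which does not use the implied length, it was 0.52 higher (exact permutation test, p = 0.3), and the ratio of HFD3 was 4.165. Adjusted over the 3 ratios the p-values were 0.7, 0.45 and 0.45, values that this design could not bring under 0.05. The samples of the diets overlapped in each of the 3 ratios.

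**Figure D4:**
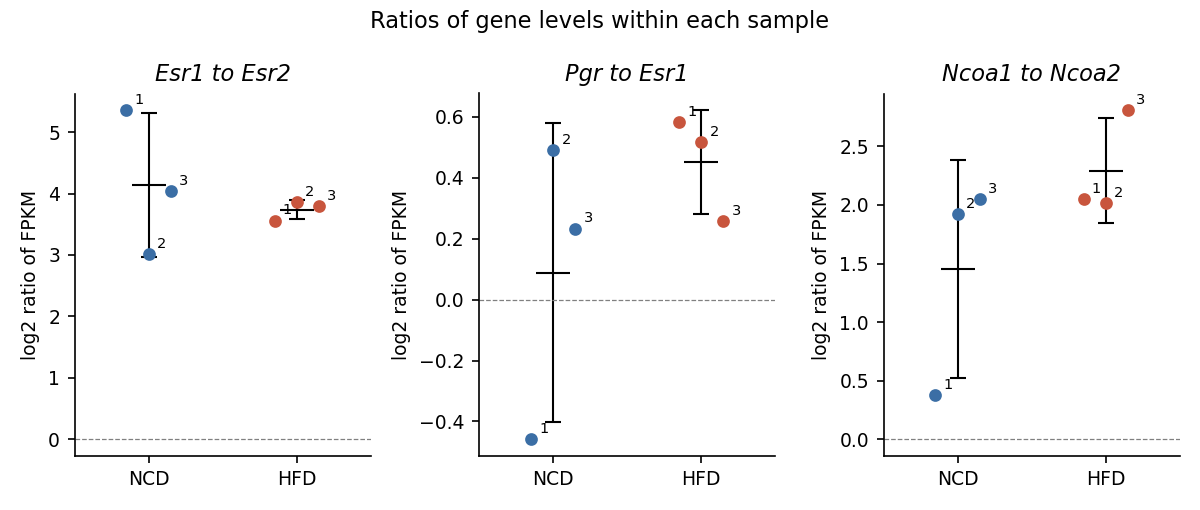
The log2 ratio of FPKM within each sample is plotted for *Esr1* to *Esr2*, *Pgr* to *Esr1* and *Ncoa1* to *Ncoa2*, with sample numbers beside the points, the mean and SD (n = 3) in black and a dashed line at equal levels. NCD1 has the highest value of the first ratio and the lowest of the other 2.

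Other genes of steroid action were examined as lists. Of the other steroid-family nuclear receptors, 4 of 5 were tested, and 2 of them, *Nr3c2* and *Esrrg*, had p under 0.05 before adjustment, both lower in HFD, where 1.09% of all genes were lower at that p. *Nr3c2*, the mineralocorticoid receptor gene, had 30.6, 21.6 and 20.4 CPM in NCD and 12.04, 16.9 and 15.97 CPM in HFD. In CPM all HFD samples were below all NCD samples, but in FPKM HFD3 (4.90) was above NCD2 (4.40) and NCD3 (3.44). Its log2 fold change was -0.70 (standard error 0.25; edgeR p = 0.0161 and adjusted p = 0.999, exact permutation p = 0.1). *Esrrg*, an orphan receptor related to ERα, had 6.01, 8.24 and 6.16 CPM in NCD and 3.60, 4.33 and 3.38 CPM in HFD. These groups did not overlap either, and the log2 fold change was -0.84 (edgeR p = 0.0275 and adjusted p = 0.999, exact permutation p = 0.1). *Nr3c1*, which encodes the glucocorticoid receptor, was the most abundant of the list and had a log2 fold change of -0.04. After adjustment 0 genes of this list passed. In CPM 3.24% of all genes tested were lower in HFD without overlap.

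All 7 membrane progesterone receptor genes were tested, and 0 had p under 0.05 in edgeR before adjustment, against 2.3% of all genes tested. *Pgrmc1*, the most abundant of them, averaged 870 ± 81.5 CPM under NCD and 846 ± 121 CPM under HFD (SD, n = 3), and *Pgrmc2* had a log2 fold change of 0.14. The median of the list was -0.04. *Paqr5* (log2 fold change 0.58) was higher in every HFD sample than in every NCD sample, in CPM and in FPKM. In CPM 3.24% of all genes tested were higher in HFD without overlap. Of the 25 genes listed for steroid synthesis and conversion, 23 were in the table and 14 were tested, with 0 at p under 0.05 and a median of -0.06. Of the genes left out, *Cyp17a1*, needed to make androgens, had 1 read in all samples together, and *Hsd3b1*, *Hsd3b6*, *Hsd17b3* and *Sult1e1* had none. *Hsd17b10*, a mitochondrial dehydrogenase, and *Por*, which passes electrons to cytochrome P450 enzymes such as aromatase, had the highest FPKM of the list, with log2 fold changes of 0.30 and -0.16, and *Hsd17b10* did not overlap between the diets.

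Among 19 other coregulators 0 had p under 0.05 in edgeR before adjustment, against 2.3% of all genes tested. The median log2 fold change was 0.0080. *Carm1* (0.17) and *Sra1* (0.27) had all HFD samples above all NCD samples in CPM, *Sra1* in FPKM as well. Such a separation in CPM, with HFD above, was found in 3.24% of all genes tested. *Ddx5*, an RNA helicase that binds ERα, was at 1809, 921 and 668 CPM in NCD and at 729, 899.8 and 707 CPM in HFD. NCD1 again stood far above the other 5 samples, and the log2 fold change was -0.54 (standard error 0.33). The corepressor gene *Ncor1* was highest in HFD3 (317 CPM), and its log2 fold change was 0.47 (standard error 0.27). Of the 9 chaperone genes 0 had p under 0.05, with a median of 0.01. *Hspa8* and *Hsp90aa1*, the most abundant, had log2 fold changes of 0.05 and 0.26, and *Fkbp5*, a cochaperone induced by glucocorticoids and progestins that was named after its value was seen, had 0.64 (edgeR p = 0.0574, exact permutation p = 0.2).

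Of 11 estrogen-responsive genes of the hypothalamus, 10 had a positive and 1 a negative log2 fold change, with a median of 0.17, where 50.5% of all genes tested were positive. The list did not record whether estradiol raises or lowers each gene, so a shared sign has no single meaning for estrogen action. *Kiss1* counted as positive with 0.42 (standard error 1.19), although NCD1 and HFD1 held no count of it. The ARC neuron markers, which share *Tac2* and *Kiss1* with this list, were positive in 9 of 10 cases with a median of 0.31. Before adjustment 2 of the 11 estrogen-responsive genes had p under 0.05, *Gal* and *Tac2*, both higher in HFD, where 1.21% of all genes were. *Gal*, which encodes galanin, was at 143, 214 and 225 CPM in NCD and at 341, 298 and 306 CPM in HFD. The diets did not overlap, and the log2 fold change was 0.70 (standard error 0.23; edgeR p = 0.00899 and adjusted p = 0.999, exact permutation p = 0.1). *Tac2*, the neurokinin B gene, had 19.6, 27.4 and 33.7 CPM in NCD and 49.4, 28.7 and 43.8 CPM in HFD, with overlap (log2 fold change 0.60; edgeR p = 0.0422 and adjusted p = 0.999, exact permutation p = 0.2). *Greb1*, an early target of ERα in many tissues that was likewise named after its value was seen, differed by 0.52 on the log2 scale (standard error 0.40). *Cited1* (0.38) did not overlap between the diets in CPM but did in FPKM. Of all genes tested, 3.24% were higher in HFD without overlap in CPM. After adjustment 0 genes passed in any of these lists by edgeR.

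**Figure D5:**
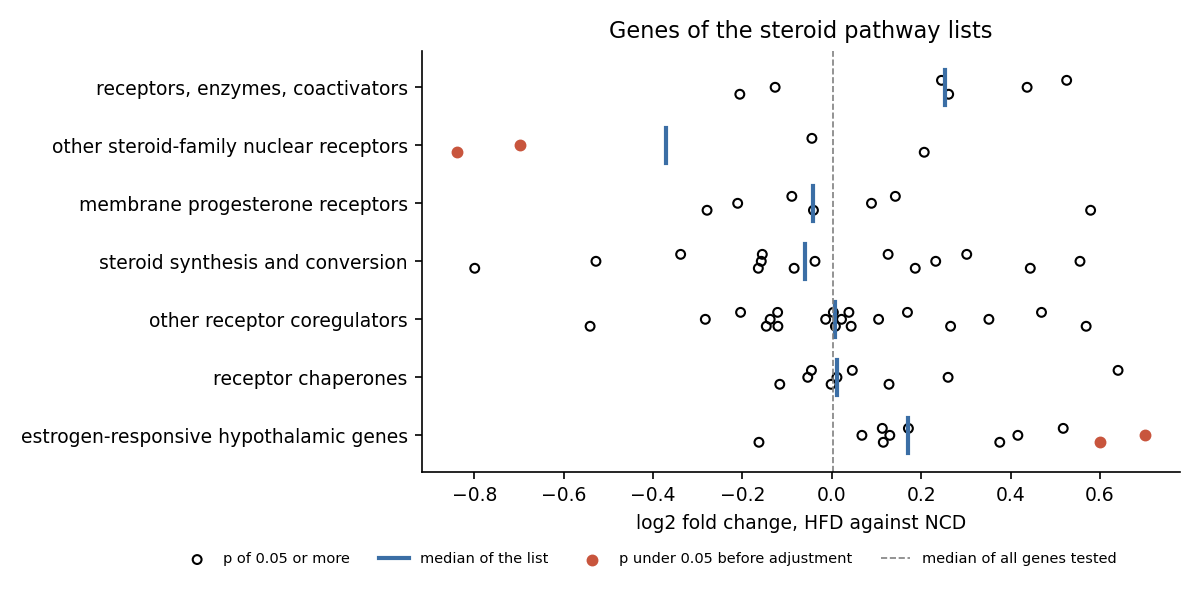
Each point is the log2 fold change of 1 tested gene in HFD against NCD, by list, filled where p was under 0.05 before adjustment, with the median of the list as a blue bar and the median of all genes tested as a dashed line. The filled points are *Nr3c2* and *Esrrg* on the negative side and *Gal* and *Tac2* on the positive side.

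The genes whose log2 CPM followed that of a member most closely over the 6 samples were *Arntl2*, *Zfp760* and *Pus3* for *Esr1* (Pearson's r = 0.999, 0.997 and 0.987). For *Pgr* they were *Trim41*, *Kctd12* and *Bmt2* (r = 0.995, 0.995 and 0.994), and for *Gper1* *Cdc40*, *H2-Q2* and *5430403G16Rik* (r = 0.99, 0.988 and 0.978). *Srd5a1* was closest to *Mrpl4*, *Arhgef37* and *Ppp1r1b* (r = 0.995, 0.993 and 0.988), *Ncoa1* to *Ly6e*, *Gm10643* and *Grik5* (r = 0.988, 0.987 and 0.986), and *Ncoa2* to *Crb1*, *Ccdc93* and *March6* (r = 0.993, 0.988 and 0.984). The 6 points of each correlation share libraries and their depth. *Pgr* had 257 genes at r of 0.95 or more, against 29 for *Esr1* and 16 for *Gper1*.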

How the data were processed

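RNA was extracted from ARC tissue of 3 NCD and 3 HFD samples, and mRNA was enriched with oligo(dT). Reads were compared by the authors with a ribosomal database (bowtie2), aligned with HISAT2 and summarized per gene with StringTie and RSEM. The versions and the annotation are not given in the sources used here, and the submitters' processing notes name the genome build mm10. The deposited counts are raw and were the input of the main tests. The FPKM values were computed by the authors and were used to compare genes. The deposited table also holds the authors' group means, log2 fold changes, p-values and FDR, which were not used.

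Symbols and positions came from GENCODE M21 (GRCm38), which held 22267 of 22322 identifiers. Genes were filtered with filterByExpr, normalized with TMM and tested with edgeR's quasi-likelihood test, with diet as the only term and adjustment over all 14188 genes. That test gives no standard error. The standard errors given here are the size of the log2 fold change divided by the square root of the F statistic of the test. Intervals of fold changes are 95% intervals from these standard errors. Log2 CPM used a prior count of 2. The fit was tested on simulated counts. Python 3.11.15, matplotlib 3.10.9 and, in R 4.3.3, the packages DESeq2 1.42.0, limma 3.58.1 and edgeR 4.0.16 were used. Groups follow the sample titles, whose letters C and H the deposited table pairs with the NCD and HFD means.

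The members and lists were chosen with earlier results of these data known. Named are all members, the genes of each list with p under 0.05 or, where fewer than 2, those with the highest mean FPKM up to 2, and the 3 genes most correlated with each tested member. Outside this rule, *Nr3c1*, *Kiss1*, *Nr5a1*, *Fezf1*, *Sim1*, *Fkbp5*, *Greb1*, *Cyp17a1*, the 4 genes without a count, *Paqr5*, *Carm1*, *Sra1* and *Cited1* were named after their values were seen. Of the genes this rule names, 1 is not reported here. Alternatives were other size factors, library totals, DESeq2, 2 other filters, limma on log2(FPKM + 1), the replicate number as a block, depth as a covariate, and each sample left out in turn. The androgen receptor is not among the listed symbols and was not analysed here.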

Additional observations from a re-analysis of the deposited data

How the results depend on the processing

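No member had an adjusted p under 0.05 in any of the fits that were run (edgeR, DESeq2 and limma), the lowest being 0.612 for *Ncoa1*. *Pgr*, *Srd5a1* and *Ncoa1* had a positive log2 fold change in all 14 alternative fits and *Gper1* in the 13 that tested it, since it did not reach a mean of 50 counts. *Esr1* ranged from -0.437 to 0.0105 and *Ncoa2* from -0.272 to 0.137 when a sample was left out, both positive without NCD replicate 1, and *Ncoa2* was 0.0403 with depth as a covariate. Before adjustment 1 member, *Ncoa1*, had p under 0.05 with limma on FPKM, with the replicate block and without HFD replicate 2, and the fits that left out a sample ranged from 0 to 1 member. Over all genes, 8 had an adjusted p under 0.05 in edgeR as reported, against 19 with DESeq2, 15 with all genes of at least 1 count, 5 with limma on FPKM, 15 with depth as a covariate, 17 with the replicate block, and 1 to 16 when a sample was left out (1 without NCD replicate 2, HFD replicate 1 or HFD replicate 2, 4 without HFD replicate 3 and 16 without NCD replicate 3). Those with p under 0.05 numbered 326, 589 with the replicate block, and 197 to 1178 when a sample was left out (197 without HFD replicate 1, 659 without HFD replicate 2 and 1178 without NCD replicate 3). Same-numbered samples correlated in their deviations from the group means at -0.0116, 0.113 and 0.369. Samples of unlike number were not compared, so these values cannot decide whether the numbers mark pairs. The main fit did not pair them. The *Esr1* to *Esr2* ratio ranged from -0.97 to 0.21 (log2, HFD against NCD) when a sample was left out, and was positive without NCD replicate 1. Per kilobase of all annotated exons the levels of *Esr1*, *Pgr*, *Ncoa1* and *Ncoa2* were 2.01, 4.11, 8.85 and 3.02 CPM, lower than in FPKM. Their annotated exons span 13661, 8546, 8576 and 15642 bases. This divisor is longer than the length that FPKM implied in any sample, and a longer divisor gives a lower value. The depth limits *Esr2* and *Cyp19a1*, which rest on 47 and 29 reads over all samples.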

Other observations

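Markers of other cell types were measured in the same samples, and 0 of them had an adjusted p under 0.05 in edgeR. Of the ARC markers *Cartpt* had a log2 fold change of 0.75, and of the paraventricular and supraoptic markers *Avp* had -1.71, *Oxt* -0.87 and *Trh* 0.51, each with p under 0.05 before adjustment and without overlap between the diets in CPM. *Sim1* of the latter list (-0.60) was also lower in HFD without overlap in CPM. Of all genes tested, 6.47% did not overlap, and 2.3% had p under 0.05, 1.21% higher and 1.09% lower in HFD. With p under 0.05 before adjustment, *Gfap* of 6 astrocyte markers was higher in HFD (log2 fold change 0.88), as were *C1qa* of 5 microglial markers (0.46), *Crym* of 8 tanycyte and ependymal markers (0.89), *Cga* of 5 pars tuberalis markers (1.36) and *Ly6c1* of 5 endothelial markers (0.81), whereas the endothelial *Cldn5* was lower (-0.48). Of the lists as a whole, 4 of the 6 astrocyte markers (median -0.13) and 3 of the 5 microglial markers (median -0.0049) had a negative log2 fold change, against 2 of the 8 tanycyte and ependymal markers (median 0.16) and 2 of the 5 endothelial markers (median 0.02). Of the 5 neuronal, 5 oligodendrocyte and 7 ventromedial markers, 0 had p under 0.05. A negative log2 fold change was found in 4 of the 5 oligodendrocyte markers (median -0.22). The same held for 1 of the 5 neuronal (median 0.05) and 3 of the 7 ventromedial markers (median 0.02). Abundant markers of these and the other lists were *Snap25* (log2 fold change -0.22), *Stmn2* (0.05), *Mbp* (0.0028), *Slc17a6* (-0.29), *Adcyap1* (0.05), *Slc1a3* (-0.22), *Chga* (0.155), *Csf1r* (0.06) and *Ccdc153* (-0.19). *Cga* was at 47.9 CPM in HFD3 and at most 14.9 CPM in the other samples, and the part of such tissue in the values of HFD3 was not tested. Pars tuberalis was the marker list in which all genes tested, 5 of 5, had a positive log2 fold change, with a median of 0.65. Each of these 5 genes was highest in HFD3. Their summed level was 276, 348 and 343 CPM in NCD1 to NCD3 and 302, 350 and 498 CPM in HFD1 to HFD3, with overlap between the diets.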
